A study of Mus musculus with 4 samples.

Results

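Levels of 10 genes of the YAP pathway were followed through 4 sorted fractions of reprogramming mouse embryonic fibroblasts (MEFs), cells on the way from a differentiated to a pluripotent state. The genes were listed by name: the coactivators Yap1 and Wwtr1, the DNA-binding partners Tead1, Tead2, Tead3 and Tead4, and the target genes Ccn1 (formerly Cyr61), Ccn2 (formerly Ctgf), Amotl2 and Ankrd1. All 10 were found among the 18193 genes named on the array, with 19 probe sets between them out of 45037 besides controls. Cells were fixed, permeabilized, stained and sorted by the proteins Oct4, Klf4 and EpCAM, and RNA of each fraction was read on 1 Affymetrix array. In gate order the first fraction was Oct4-negative, the next Oct4+Klf4-negative, then Oct4+Klf4+EpCAM-negative and last Oct4+Klf4+EpCAM+. Strain, day of sorting, introduced factors and delivery are not stated in the labels, nor is a Klf4 gate for the Oct4-negative cells or an EpCAM gate for the first 2 fractions. Nor do they say that all fractions came from 1 culture, so a difference from the Oct4-negative array may hold one between cultures.

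YAP and TAZ (the product of Wwtr1) are coactivators without a DNA-binding domain of their own. They enter the nucleus of spread, tensed cells and bind TEAD proteins, which recognize the sequence GGAATG. In the Hippo pathway the kinases Mst and Lats phosphorylate them and keep them in the cytoplasm, and cell contacts, polarity and loss of actin tension favour that state. Fibroblasts on stiff plastic are known for strong transcription of Ccn1 and Ccn2, secreted matricellular proteins, and Tead4 is known for its role in the trophectoderm of the early embryo.

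The promoters of the target genes are shown because the members were listed for their link to TEAD. RefSeq promoter windows of build GRCm38.p6, each with 250 bases before and 50 after a gene start, were given for 7 of the 10 members; Tead1, Tead4 and Ccn2 had none. The letters GGAATG or their reverse complement CATTCC were searched on both strands. They occurred in a window of 6 of the 7 members, Ccn1, Amotl2, Ankrd1, Yap1, Wwtr1 and Tead3, and not in that of Tead2. Among all genes of the promoter table, 16.6% held a match. The motifs TGANTCA (AP-1) and the CArG box, bound by serum response factor (SRF), were found in 0 of the 7 members, against 8.97% and 1.81% of all genes of the table. A match of letters is a description and does not show binding.

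The 250 bases before the start of Ccn1 (GRCm38.p6 chr3:145649986-145650235, minus strand) and of Ankrd1 (chr19:36119845-36120094, minus strand) follow in 5′ to 3′ order of the gene, with the match in capitals.
Ccn1: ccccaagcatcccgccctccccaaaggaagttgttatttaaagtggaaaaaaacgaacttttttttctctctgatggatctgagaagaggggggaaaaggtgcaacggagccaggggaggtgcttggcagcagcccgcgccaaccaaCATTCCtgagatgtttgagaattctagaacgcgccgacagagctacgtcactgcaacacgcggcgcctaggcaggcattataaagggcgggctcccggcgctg
Ankrd1: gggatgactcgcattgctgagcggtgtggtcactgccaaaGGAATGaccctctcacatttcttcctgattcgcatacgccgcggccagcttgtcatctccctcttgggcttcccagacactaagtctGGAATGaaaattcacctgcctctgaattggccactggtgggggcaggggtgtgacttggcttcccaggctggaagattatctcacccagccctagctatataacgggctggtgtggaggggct

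In Ccn1 the match began 103 bases before the start site, and in Ankrd1 the 2 matches began 210 and 123 bases before it. For comparison, stretches of 30 bases around the match in Amotl2 (chr9:102717727-102717756, plus strand, 65 bases before the start), Yap1 (chr9:8004720-8004749, minus strand, 141 bases before) and Wwtr1 (chr3:57576029-57576058, minus strand, 136 bases before the nearer of its 2 listed starts) are given beside that of Ccn1 (chr3:145650071-145650100).
Ccn1: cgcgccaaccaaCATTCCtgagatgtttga
Amotl2: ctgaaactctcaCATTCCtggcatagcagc
Yap1: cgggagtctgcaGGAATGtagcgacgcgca
Wwtr1: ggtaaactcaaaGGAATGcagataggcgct

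Ccn1 and Amotl2 held the match on the strand opposite to the gene, followed in both by the letter t, while Yap1 and Wwtr1 held it on the strand of the gene. Of the measured genes with a promoter window, 14.1% held the match. It occurred in 17.4% of the 619 that were lower at the Klf4 gate and in 16.3% of the 725 that were higher there, by the rule given next.

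Values are log2 levels from robust multi-array average (RMA) processing. With 1 array per fraction there is no replicate and no test, and a call rests on size. A call of higher or lower needed a difference of at least 2-fold and a brighter level at or above the floor of 4.53, the median of all values. The background ceiling of 2.94 was set by 27 control probe sets for bacterial transcripts, none of which exceeded it on any array, and the words "at least" mark a fold computed against it because the dimmer level did not exceed it. A gene was represented by its brightest probe set. As a gauge of measurement scatter, the log2 differences given by several probe sets of 1 gene had a median SD of 0.167 at the Oct4 gate, 0.172 at the Klf4 gate, 0.122 at the EpCAM gate and 0.177 between the ends of the series. This gauge holds no variation between cultures or sorts. Levels of different genes cannot be set against each other, since probe sets differ in brightness.

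Array medians lay between 4.49 and 4.55, and the Gapdh control probe sets differed between the 3′ and 5′ ends by 0.97 to 1.30, with the highest value in the Oct4+Klf4-negative array. Pou5f1, which encodes Oct4, and Epcam followed their gates, at 7.59, 11.48, 11.66 and 11.70 and at 4.63, 5.20, 6.54 and 9.52. The brighter Klf4 probe set was 15.6-fold higher at its gate, while the other was lower. Of 15 fibroblast markers on the array, 14 reached the floor in the Oct4-negative fraction, with Pdgfra at 3.15 as the exception. Measured genes, those reaching the floor on at least 1 array, numbered 11429, and 9 of the 10 members were among them. The exception was Ankrd1, which peaked at 4.52. Neighbouring comparisons share an array, so their differences are not independent.

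**Figure D1:**
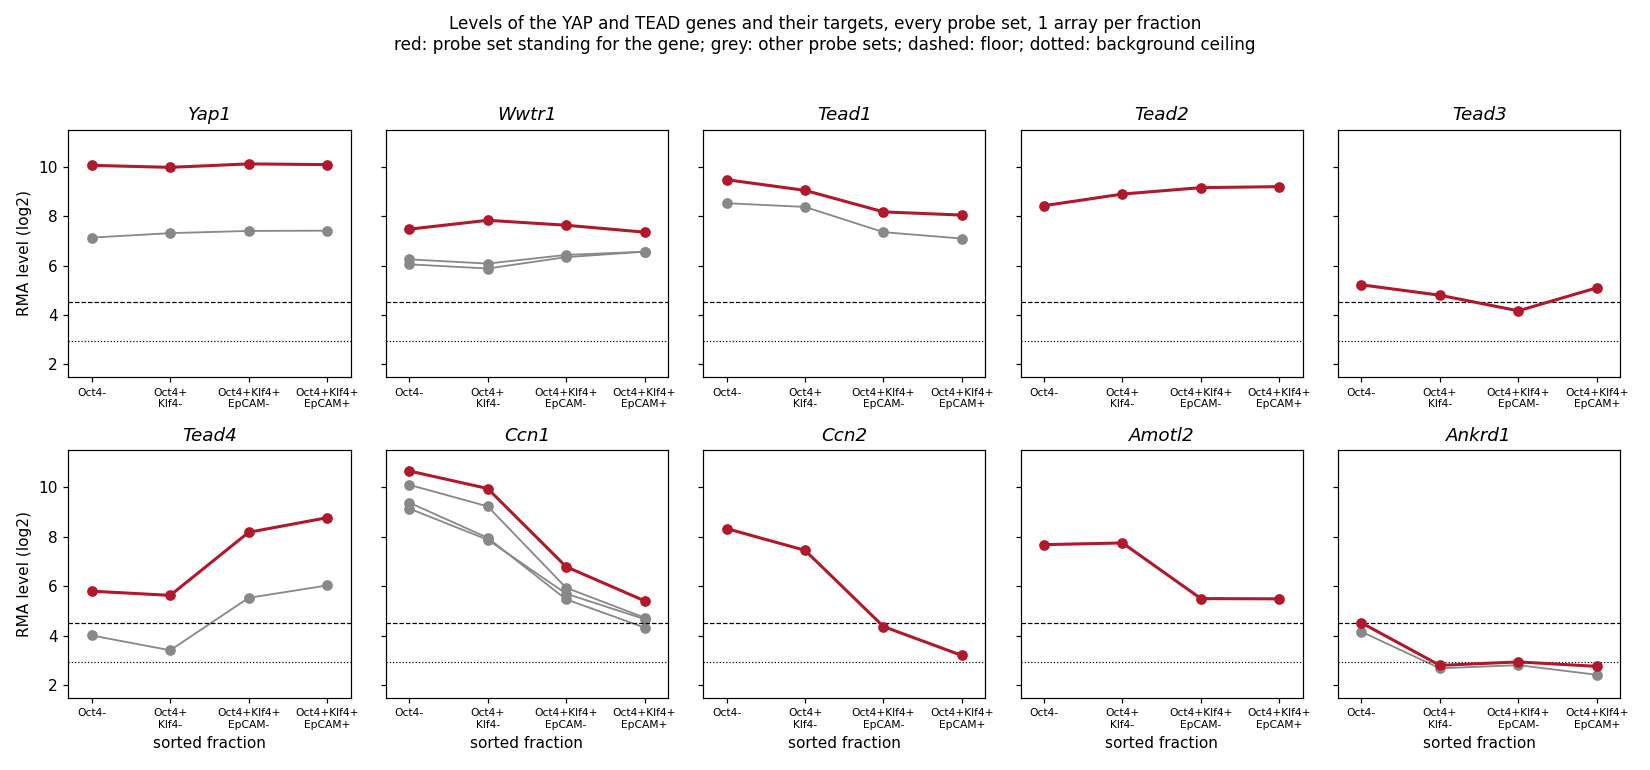
RMA level (log2) of every probe set of the 10 genes in the 4 sorted fractions in gate order, 1 array per fraction; red marks the probe set standing for the gene, grey the others, the dashed line the floor (4.53) and the dotted line the background ceiling (2.94). Yap1 stayed between 9.97 and 10.11 by its brighter probe set. Ccn1 and Ccn2 stepped down at each gate, Amotl2 dropped at the Klf4 gate, and Tead4 rose there.

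The coactivator genes did not differ by 2-fold between any fractions compared. Yap1 had levels of 10.05, 9.97, 10.11 and 10.08 in gate order by its brighter probe set and 7.13, 7.31, 7.40 and 7.41 by the other. Its range over the arrays was 0.15 by the brighter probe set, and 10952 of the measured genes had a larger one. By the other probe set the range was 0.27. Wwtr1 had levels of 7.47, 7.83, 7.63 and 7.35 by the brightest of its 3 probe sets. The other probe sets of Wwtr1 differed in direction: at the Klf4 gate the brightest gave a log2 difference of -0.20 and the others 0.35 and 0.46. No direction can be given for Wwtr1, and no probe set of it reached a 2-fold difference. These are transcript levels and do not show where in the cell the proteins were or how they were phosphorylated.

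The 4 Tead genes, which encode the DNA-binding partners, went different ways. The levels of Tead4 were 5.80, 5.63, 8.18 and 8.77 in gate order. Both Klf4-positive arrays were thus above both others, with a 5.83-fold difference at the Klf4 gate, where 225 of the 11429 measured genes had a larger rise. Its second probe set had levels of 4.01, 3.41, 5.53 and 6.03 and gave 4.34-fold at that gate. Between the ends of the series Tead4 was 7.88-fold higher by the brighter probe set and 4.05-fold by the other. The further step at the EpCAM gate, 1.51-fold, did not reach the size rule.

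Tead1 went the other way, with levels of 9.47, 9.04, 8.17 and 8.04. Each fraction lay below the one before it, and the Oct4+Klf4+EpCAM+ array was 2.70-fold below the Oct4-negative one by each of the 2 probe sets. At the Klf4 gate the brighter probe set gave 1.83-fold lower and the other, at 8.52, 8.37, 7.35 and 7.09, gave 2.04-fold lower, so that this step lay at the size rule. Tead2 had levels of 8.42, 8.89, 9.15 and 9.19, upward at each gate by small steps that added up to 1.70-fold, short of the rule. Tead3 had levels of 5.22, 4.80, 4.17 and 5.10, lowest in the Oct4+Klf4+EpCAM-negative array, where it lay under the floor. Its largest step was 1.90-fold upward at the EpCAM gate, also short of the rule.

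The matricellular genes showed the largest differences of the set at the Klf4 gate and between the ends. Ccn1 had levels of 10.66, 9.95, 6.79 and 5.41 in gate order. Each array was below the one before it, by 1.63-fold at the Oct4 gate, 8.97-fold at the Klf4 gate and 2.59-fold at the EpCAM gate. In a sorted fraction read in bulk, a lower level can mean fewer cells with the transcript or less of it per cell, and these cannot be told apart. Between the ends Ccn1 was 37.9-fold lower, and 15 of the measured genes had a larger drop.

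Ccn1 has 4 probe sets, which agreed in direction at every gate and differed in how the drop was shared out. The 2 brightest gave 1.63-fold and 1.83-fold at the Oct4 gate, and the dimmer ones, with Oct4-negative levels of 9.14 and 9.38, gave 2.40-fold and 2.68-fold. At the Klf4 gate the order turned: the brightest gave 8.97-fold and 9.82-fold and the dimmer ones 4.53-fold and 5.61-fold. Between the ends the 4 probe sets spanned 22.1-fold to 41.5-fold. The probe set standing for Ccn1 carries the suffix of sets that may read related transcripts, and the one without a suffix, at 9.38, 7.96, 5.47 and 4.33, gave 33.2-fold.

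Ccn2, a relative of Ccn1 that promotes matrix synthesis, had levels of 8.33, 7.45, 4.37 and 3.20. It was 8.49-fold lower at the Klf4 gate and 35.0-fold lower between the ends, where 18 measured genes had a larger drop. At the Oct4 gate it was 1.83-fold lower, short of the rule. At the EpCAM gate the difference was 2.25-fold, but neither level reached the floor, so that no call was made. The lowest level of Ccn2 was close to the background ceiling. Ccn2 has 1 probe set, so that no other could be set beside it.

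Amotl2, a scaffold of the angiomotin family that binds YAP and is itself a target gene, had levels of 7.68, 7.75, 5.50 and 5.49. Both Klf4-positive arrays lay below both others, and the Klf4 gate separated them by 4.76-fold. Amotl2 has 1 probe set, so that no other could be set beside it. Its log2 differences at the Oct4 and EpCAM gates, 0.07 and -0.01, lay within the median scatter of genes with several probe sets. Ankrd1, an ankyrin repeat protein of stretched muscle and a common readout of YAP activity, was read at 4.52, 2.80, 2.94 and 2.76. The first of these, from the Oct4-negative array, was at least 2.98-fold above the Oct4+Klf4-negative one without reaching the floor, and the other 3 arrays read it at about the background ceiling. Its second probe set, at 4.16, 2.68, 2.81 and 2.42, gave at least 2.33-fold.

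**Figure D2:**
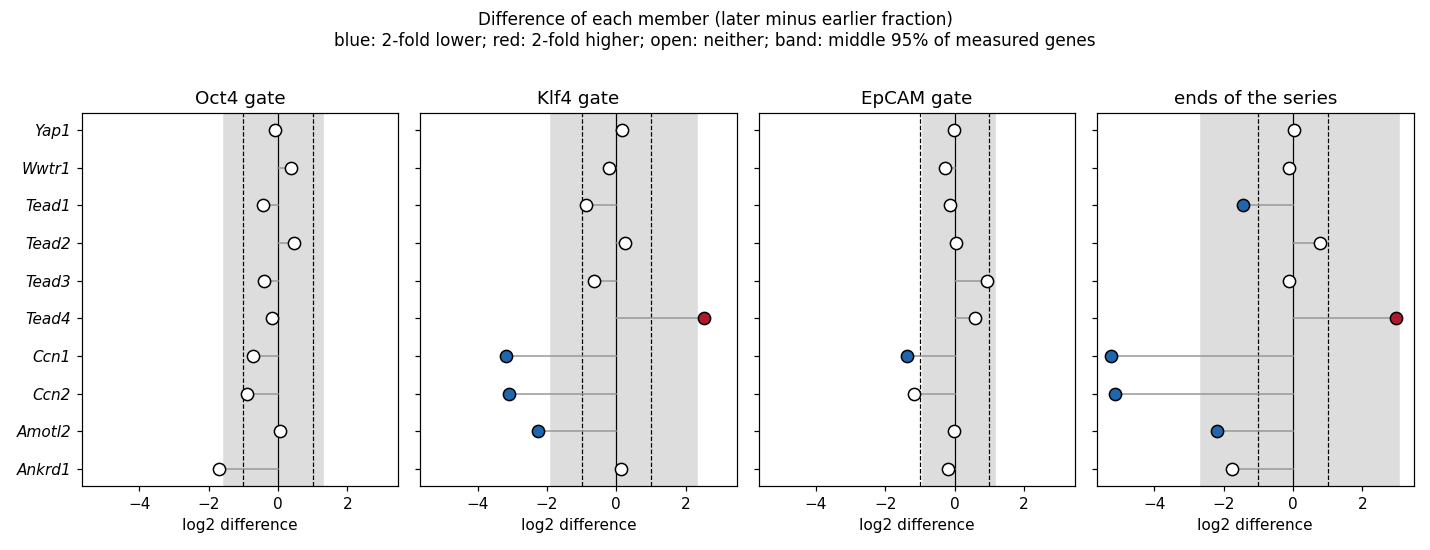
Log2 difference of each gene in the 4 comparisons, later minus earlier fraction, 1 array per fraction; filled points passed the size rule (blue lower, red higher), open points did not, dashed lines mark 2-fold and the grey band the middle 95% of the measured genes. At the Klf4 gate Ccn1, Ccn2 and Amotl2 lay left of the band, which ran from -1.89 to 2.33, and Tead4 right of it.

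Counted by gate, 0 of the 9 measured members were called at the Oct4 gate, where 3.59% of measured genes were higher and 4.84% lower. Ccn1 was called lower there when its probe sets were averaged or the one without a suffix was used, and Ccn2 when arrays were centred on housekeeping genes. The Klf4 gate held the most calls of the 3 gates, with Ccn1, Ccn2 and Amotl2 lower and Tead4 higher. Of all measured genes 6.88% were lower and 8.44% higher there. Ccn2 reached the floor only before that gate, so that it counted as measured through the arrays where it was high. The members were chosen with earlier results of these data known, so their shares beside these backgrounds are a description. At the EpCAM gate Ccn1 alone was called, lower, with 1.78% of measured genes lower and 3.11% higher, and this call was lost with a floor at the 75th percentile or a 3-fold rule. Between the ends, Ccn1, Ccn2, Amotl2 and Tead1 were lower and Tead4 higher, with backgrounds of 10.8% lower and 11.9% higher. The median log2 difference of the 9 members was -0.16, -0.63, -0.03 and -0.12 in these comparisons, against 0.02, 0.04, 0.00 and 0.07 over all measured genes. Ccn1, Ccn2 and Tead1 stepped down at each gate, as 10.9% of the measured genes did, and Tead2 stepped up at each gate, as 14.3% did.

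For members whose level spanned at least 4-fold over the arrays, the measured genes with the most similar profile were found by the root mean square distance between mean-centred log2 levels over the 4 arrays. The nearest gene to Ccn1 was Ccn2 (0.105), followed by Phldb2 (0.120), which encodes a protein that anchors microtubules at the cell cortex, and Gxylt2 (0.173). The nearest to Ccn2 was Phldb2 (0.074), with levels of 7.80, 7.10, 3.86 and 2.81, then Ccn1 and Serpinf1 (0.207), which encodes the secreted factor PEDF. Nearest to Amotl2 were Aph1b (0.024), a gamma-secretase subunit, Svep1 (0.068) and the G protein gene Gnb4 (0.097). Nearest to Tead4 were the transcription factor gene Tcf23 (0.041), Adap1 (0.074) and the myosin gene Myo1g (0.079). With 4 arrays many genes can share a profile by shape alone, and this is a description.

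Genes upstream of YAP were read from lists of the pathway. The measured genes of the kinase core were the Mst kinase gene Stk4, the adaptor Sav1, Lats1 and Lats2, and the kinase activator genes Mob1a and Mob1b. The core held no call: of these 6 genes, 0 were called in any comparison. Of all measured genes 1.78% to 10.8% were lower and 3.11% to 11.9% higher in these comparisons, so 0 among 6 genes is near those shares. The largest difference among them was that of Stk4, whose levels were 8.48, 8.64, 9.20 and 9.23. The median log2 difference of the core was 0.03, -0.13, 0.02 and -0.10 in the 4 comparisons.

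The upstream regulators and scaffolds were lower in 5 of 16 and higher in 1 of 16 at the Klf4 gate (median log2 difference -0.36), where 6.88% and 8.44% of measured genes were called. Fat4, a giant protocadherin that signals to the pathway, had levels of 7.70, 8.16, 5.11 and 3.28. It was 8.27-fold lower at the Klf4 gate and 3.55-fold lower at the EpCAM gate. That was the only call of this list at the EpCAM gate, where 1.78% of measured genes were lower and 3.11% higher. The relatives of Amotl2 dropped at the Klf4 gate too: Amot, at 8.46, 8.24, 6.05 and 5.57, was 4.55-fold lower, and Amotl1, at 8.86, 9.14, 7.92 and 7.23, was 2.33-fold lower. All 3 angiomotin genes were thus lower at that gate.

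Ajuba, a LIM protein that inhibits Lats under tension, was 2.42-fold lower at the Klf4 gate, and Wwc2, a relative of the scaffold Kibra, 2.06-fold lower. The kinase gene Taok3 was 2.50-fold higher, with levels of 8.69, 8.16, 9.48 and 9.96. Nf2, which encodes the upstream regulator merlin, stayed between 8.35 and 8.99. Between the ends the list had a median log2 difference of -0.56, with 6 of 16 lower and 1 higher, against 10.8% and 11.9% of measured genes. Fat4 was 21.4-fold lower there and the membrane scaffold gene Frmd6 2.92-fold lower. At the Oct4 gate 0 of 16 were called in either direction, near the 4.84% of measured genes lower and 3.59% higher there.

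Vgll proteins bind TEAD in place of YAP, and 2 of their 4 genes were measured. Vgll3 had levels of 7.77, 7.89, 4.86 and 5.05, 8.16-fold lower at the Klf4 gate, and each of its 3 probe sets was lower there. Vgll4 stayed between 5.77 and 6.25. Vgll1 and Vgll2 stayed below the floor throughout.

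A further list held 18 genes known as YAP targets in other cells, of which 17 were measured. Lats2 and Ptpn14 also stand in the upstream lists. At the Oct4 gate 4 were lower and 0 higher (median log2 difference -0.49, backgrounds of 4.84% and 3.59%). F3, the tissue factor of blood clotting, had levels of 7.06, 3.27, 2.37 and 2.57 and was 13.8-fold lower at that gate. F3 reached the floor only on the Oct4-negative array, so that it counted as measured through the array where it was high. The kinase gene Nuak2, at 6.71, 4.43, 5.27 and 6.60, was 4.84-fold lower at the Oct4 gate and 2.51-fold higher at the EpCAM gate. The receptor tyrosine kinase gene Axl, at 9.46, 8.04, 7.66 and 6.32, was 2.68-fold and 2.54-fold lower at the same gates. The fourth gene lower at the Oct4 gate was Arhgef17, at 2.06-fold.

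At the Klf4 gate 4 of the 17 were lower and 1 higher (median log2 difference -0.44, backgrounds of 6.88% and 8.44%). The RNA-binding protein gene Rbms3, at 6.35, 6.85, 3.60 and 2.32, was 9.53-fold lower and the membrane repair gene Myof, at 8.46, 7.93, 6.18 and 5.18, 3.35-fold lower. Rbms3 reached the floor only before this gate, so that it counted as measured through the arrays where it was high. Arhgef17 and the matrix protein gene Ccdc80 were 2.80-fold and 2.10-fold lower. Nt5e, which encodes the surface enzyme CD73, was 15.6-fold higher, with levels of 4.72, 4.92, 8.88 and 8.91, and 1 of its 3 probe sets did not share the rise. At the EpCAM gate 2 were lower, Myof and Axl, and 1 higher, Nuak2 (backgrounds of 1.78% and 3.11%). The 2 lower became 1 or 0 under 6 of 8 alternatives. Between the ends 8 of 17 were lower and 1 higher (median log2 difference -0.99), with backgrounds of 10.8% and 11.9%.

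**Figure D3:**
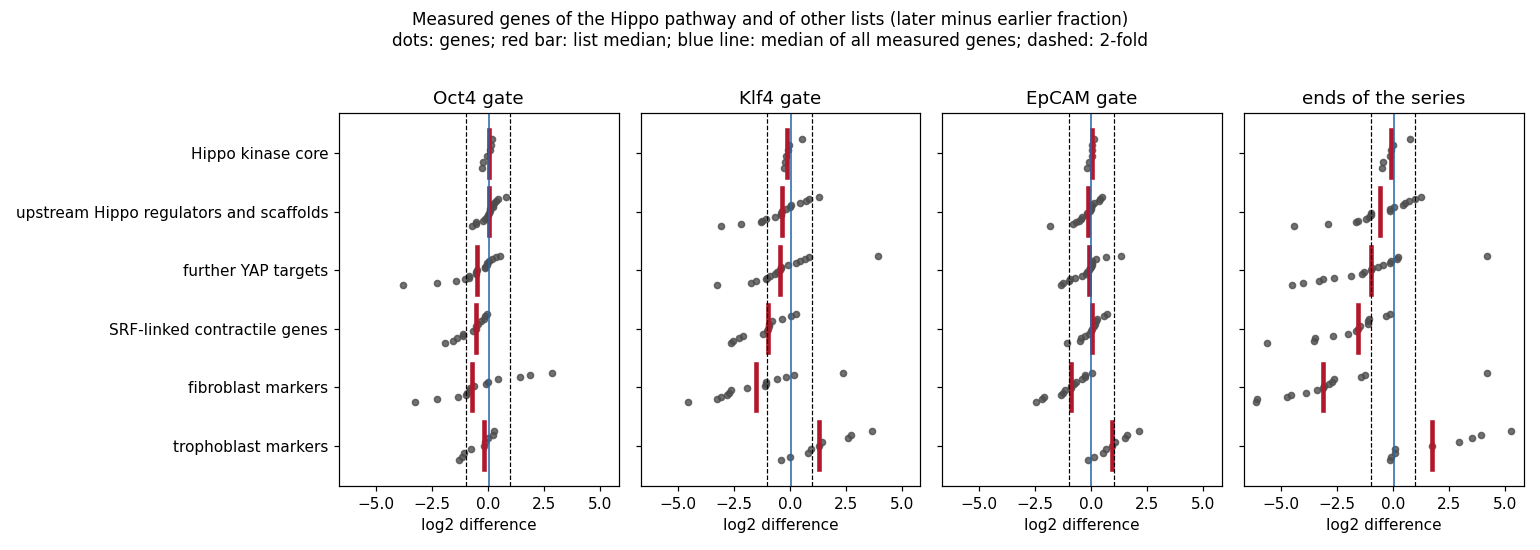
Log2 difference of each measured gene in 6 lists and the 4 comparisons, later minus earlier fraction, 1 array per fraction; dots are genes, the red bar is the list median, the blue line the median of all measured genes and dashed lines mark 2-fold. The kinase core stayed within 2-fold throughout, while fibroblast markers had a median of -3.10 and the list of SRF-linked contractile genes of -1.54 between the ends.

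Contractile genes linked to SRF, a factor that responds to actin dynamics, were read beside the YAP targets, in a list that also held the regulator genes Srf, Mrtfa and Mrtfb. Of 13 measured, 5 were lower at the Oct4 gate (median log2 difference -0.56), 6 at the Klf4 gate (-0.96) and 1 at the EpCAM gate (0.01), with 0 higher at any gate. Of all measured genes 4.84%, 6.88% and 1.78% were lower at these gates. Between the ends 11 of 13 were lower (-1.54), against 10.8%. Acta2, smooth muscle actin, had levels of 10.40, 8.48, 5.86 and 4.79 and was called lower at each gate. Its EpCAM gate call, 2.10-fold, was lost under 5 of 8 alternatives: housekeeping centring, the 75th percentile floor, averaged probe sets, probe sets without a suffix and the 3-fold rule. Tagln, at 9.16, 7.79, 5.52 and 5.66, and Myl9, at 7.90, 6.34, 4.25 and 4.41, were called lower at the Oct4 and Klf4 gates. Myl9 reached the floor only before the Klf4 gate, so that it counted as measured through the arrays where it was high. The differences of the list at the Oct4 gate ran from 3.77-fold lower for Acta2 to 1.02-fold lower for Srf. Cnn2, a calponin gene, was 1.08-fold lower there and 5.87-fold lower at the Klf4 gate.

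Fibroblast markers were read as a measure of the starting cell type. The mean level of the 15 on the array was 8.79, 8.45, 6.97 and 6.01, and of 14 measured, 10 were lower at the Klf4 gate and 6 at the EpCAM gate, against 6.88% and 1.78% of measured genes. At the Oct4 gate 3 were lower, Col1a1, Col1a2 and Pdgfrb, against 4.84%, and 3 were higher, against 3.59%: Postn by 7.22-fold, Dcn by 3.63-fold and Thy1 by 2.69-fold. Dcn, a proteoglycan gene, was also higher at the Klf4 gate and between the ends, where the other 13 were lower (backgrounds of 11.9% and 10.8%). Lum, at 5.44, 5.88, 3.10 and 2.83, reached the floor only before the Klf4 gate. It counted as measured through the arrays where it was high. The part of a changing share of fibroblast-like cells in the levels of Ccn1, Ccn2 and Amotl2 was not tested.

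Trophoblast markers, read because of Tead4, had mean levels of 4.32, 3.87, 5.26 and 5.96 over 11 genes. Of 9 measured, 5 were higher at the Klf4 gate and 4 at the EpCAM gate, against 8.44% and 3.11% of measured genes. Among these, Gata3, Tfap2c and Plet1 reached the floor only on the Klf4-positive arrays and Elf5 only on the Oct4+Klf4+EpCAM+ array, so that they counted as measured through their rise. The transcription factor genes Tfap2c and Hand1 were 6.15-fold and 6.62-fold higher at the Klf4 gate. Gata2 and Tfap2a were lower at the Oct4 gate, against 4.84%. Between the ends 5 of the 9 were higher and 0 lower, against 11.9% and 10.8%. Tfap2a (6.61, 5.30, 6.61 and 6.71) and Gata3 (4.43, 3.27, 4.70 and 4.54), higher at the Klf4 gate, were not among them. Nor was Krt7 (5.50, 4.74, 4.37 and 5.41), higher at the EpCAM gate. The defining gene Cdx2 stayed between 2.69 and 2.92, at or below the background ceiling on every array. Eomes, at 3.27, 2.71, 4.50 and 3.98, peaked just below the floor, so that its rise of at least 2.95-fold at the Klf4 gate was not called. Keratinocyte markers were higher in 6 of 11 measured at the Klf4 gate and in 5 at the EpCAM gate, against 8.44% and 3.11%. Here too Krt14, Krt6b and Pkp1 reached the floor only on the Klf4-positive arrays, and Krt6a only on the Oct4+Klf4+EpCAM+ array. At the Klf4 gate Pkp1, Krtdap, Itgb4 and Krt14 were 24.5-fold, 17.7-fold, 11.9-fold and 8.54-fold higher, while the defining gene Trp63 lay below the floor on every array. The part of such cells in the level of Tead4 was not tested.

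Of 7 endothelial markers on the array, the 3 measured were higher at the Klf4 gate: Cldn5 by 9.28-fold, Flt1 by 5.79-fold and Tek by 3.32-fold. Of all measured genes 8.44% were higher there. Cldn5 reached the floor only on the Klf4-positive arrays, so that it counted as measured through its rise. Tek was 17.9-fold higher and Flt1 2.74-fold lower at the Oct4 gate. The defining genes Pecam1 and Cdh5 peaked at 3.38 and 2.97. Of 6 macrophage markers 2 were measured, and both were lower at the Oct4 gate, Cd68 by 3.52-fold and Cd14 by 2.68-fold, against 4.84%. Cd14 was 3.13-fold higher at the Klf4 gate. Of 12 striated muscle markers, read because of Ankrd1, 4 were measured. Of these 3 were higher at the Klf4 gate, Nppb, Myl7 and Des, against 8.44% of measured genes. Nppb and Myl7 reached the floor only on the Klf4-positive arrays, so that they counted as measured through their rise. Myog peaked at 2.36 and Actc1 at 2.19. Des alone of the 4 reached the floor on an array of the Oct4 gate, at 4.61 in the Oct4-negative one, so the list gives little reading at the gate where Ankrd1 had its largest step.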

How the data were processed

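The 4 arrays, 1 per fraction, were analysed from the authors' deposited table of log2 levels for 45101 probe sets, 64 of them controls. Per the labels' protocols, RNA of fixed cells was recovered with the RecoverAll kit and amplified with the Ovation Pico WTA kit. Per the submitters' processing notes the levels come from RMA, with its version not given in the sources used here. Amplification of RNA from fixed cells can alter levels by transcript integrity. Of the probe sets besides controls, 932 had several genes in the platform annotation and 9160 were unlisted, and neither kind was used. Gene identifiers were matched to RefSeq GRCm38.p6 for 34754 of 34958 probe sets with 1 symbol, 13 of which are controls and were left out of the gene levels, with 0 symbols changed.

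Differences and size rule calls were computed in Python 3.11.15 with pandas 2.3.3 and numpy 2.4.6 and tested on simulated data. No test, p-value or interval is possible with 1 array per group, and precision is limited by the number of arrays. The text names all 10 members, of each list up to 6 measured genes with the largest differences past the size rule and genes behind a count, and the 3 nearest profiles of members spanning at least 4-fold. The members and lists were chosen with earlier results of these data known. Alternatives were probe set choice, floor, centring and size rule. Of the lists, 1 of 7 kinase core genes, 4 of 10 housekeeping genes, 1 of 16 fibroblast markers (Fbn1) and 1 of 15 keratinocyte markers (Dsg3) had no probe set of 1 gene. Protein identities were not analysed here.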

Additional observations from a re-analysis of the deposited data

How the results depend on the processing

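The count of members called at each gate was recomputed under 8 alternatives, 64 counts in all, of which 52 were within 1.5 times the reported one. At the Oct4 gate, where 0 were lower, the count became 1 with the mean of all probe sets or with probe sets without a suffix (Ccn1), 1 with no floor (Ankrd1), 2 at 1.5-fold (Ccn1 and Ccn2) and 2 with arrays centred on housekeeping genes (Ccn2 and Ankrd1). At the Klf4 gate the 3 lower genes became 5 at 1.5-fold, with Tead1 and Tead3. At the EpCAM gate the 1 lower gene became 0 with the floor at the 75th percentile, 0 at 3-fold and 2 with no floor (with Ccn2), and the 0 higher became 1 with housekeeping centring (Tead3) and 2 at 1.5-fold (Tead3 and Tead4). Between the ends the 1 higher gene became 2 at 1.5-fold, with Tead2. Of the 160 differences of single members under the 4 alternatives of probe set choice and centring, 18 moved by more than the scatter between probe sets and 0 of those called changed sign. The step of Ccn1 at the Klf4 gate ran from -3.22 to -2.49 and that of Tead4 between the ends from 2.02 to 3.04 on the log2 scale. Housekeeping centring, over 6 genes, shifted the later arrays by 0.164, 0.221 and 0.114 against the first. It lowered the share of calls that were higher at the Oct4 gate from 42.6% to 31.2% of all genes called. With the floor at the 75th percentile, the trophoblast markers higher at the Klf4 gate became 1 in place of 5 and the fibroblast markers lower at the EpCAM gate 2 in place of 6. No paired analysis was possible because each fraction has 1 array and the labels carry no replicate numbers. For the same reason no replicate could be left out. Levels near the background ceiling, such as those of Ankrd1 and the last of Ccn2, limit what a fold can show.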

Other observations

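Other genes of the CCN family were read after the values of Ccn1 and Ccn2 had been seen. Ccn4, which encodes a Wnt-induced matricellular protein, had levels of 7.87, 6.13, 3.24 and 2.82 in gate order, 3.34-fold lower at the Oct4 gate and 7.40-fold lower at the Klf4 gate. Ccn3 had levels of 7.41, 3.28, 2.22 and 2.62, 17.5-fold lower at the Oct4 gate, and Ccn5 had levels of 5.96, 3.91, 3.62 and 3.80, 4.15-fold lower there. Ccn1 and Ccn2 were 1.63-fold and 1.83-fold lower at that gate by the probe sets standing for them. Ccn6 stayed below the floor throughout. The 5 measured CCN genes, Ccn1 and Ccn2 among them, were each lower between the ends of the series. The values of Ccn1 and Ccn2 were already known. Ccn3 and Ccn5 reached the floor only on the Oct4-negative array, and Ccn4 only before the Klf4 gate. Ccn3, Ccn4 and Ccn5 thus counted as measured through arrays where they were high. For these reasons the count cannot be set against the 10.8% of all measured genes that were lower. Ccn3 was lower by at least 22.1-fold and Ccn4 by at least 30.4-fold.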
